A study of Mus musculus with 16 samples.

Results

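Obese tumors were compared with lean tumors after chemotherapy, across every gene that had at least 1 read in each of the 8 tumors concerned. Of the 45777 genes listed, 28655 had a count of 0 in at least 1 of these tumors and were left out, and 17122 were tested. The tumors were subcutaneous allografts of B16F10 cells, a pigmented melanoma line of C57BL/6 origin that was 1 line in both hosts. The lean tumors had grown in C57BL/6J mice and the obese tumors in C57BL/6J-ob/ob mice, which lack functional leptin, the fat cell hormone that limits appetite. All 8 tumors came from mice that had received etoposide (ETS), a topoisomerase II poison that breaks DNA, by repeated intraperitoneal injection. The groups were named by host, and whether they were grafted, treated and sequenced together is not stated in the sources used here. The groups held 4 tumors each, out of 16 in the series, and the other 8 tumors, 4 lean and 4 obese taken before therapy, were used for 1 comparison below. RNA came from whole tumors, which hold vessels, immune cells, connective tissue and whatever host fat or muscle was cut out with them, and fewer cells of a type and less RNA per cell cannot be told apart in such data. The labels do not say more of the tumors than that they are numbered allografts, so p-values measure the spread between these samples.

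Fatty acid oxidation (FAO) breaks fatty acids down to acetyl-CoA, mostly in mitochondria. Acyl-CoA synthetases activate the fatty acid, carnitine palmitoyltransferases carry it through the mitochondrial membranes, and acyl-CoA dehydrogenases begin each round of cleavage. PPAR receptors are nuclear receptors that bind fatty acids and drive many of these genes, together with genes of lipid uptake and storage. The study asked whether obesity impairs the induction of FAO by DNA damage. The host comparison after ETS gives the levels at which lean and obese tumors ended.

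Total counts ranged from 57178259 to 61655287 in the lean and from 51619026 to 60741964 in the obese tumors. Mitochondrially encoded genes took 9.75 to 14.4% of the counts in lean tumors and 4.63 to 11.6% in obese tumors, with obese tumors 3 and 4 lowest at 6.64 and 4.63%. Across genes, log2 levels correlated at 0.978 to 0.992 between lean tumors, 0.970 to 0.987 between obese tumors and 0.947 to 0.987 across the groups, and obese tumor 4 stood furthest from its group at 0.970 to 0.978. Melanocyte markers were high in all 8 tumors, with a summed level of the 7 markers of 22080 to 24730 CPM (counts scaled by TMM to a common library size) in lean tumors and of 10260 to 23880 in obese tumors, the lowest being obese tumors 3 and 4. All results below were therefore also computed without obese tumor 4.

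Few genes passed the main test of the host difference after ETS. That test missed many smaller changes in simulated counts, so the number does not measure how far the hosts differed. With edgeR's quasi-likelihood test and Benjamini-Hochberg adjustment over the 17122 genes, 69 genes had an adjusted p under 0.05 and are here termed called (0.403%). Of these, 51 were higher (0.298%) and 18 lower (0.105%) in obese tumors, and in all 69 the 4 obese tumors lay on the same side of the 4 lean tumors. At an unadjusted p under 0.05 there were 3541 genes (20.7%), 2053 higher (12%) and 1488 lower (8.69%) in obese tumors, and the counts of list members below are to be read against these shares. By the looser limits of the study, which ask for 2-fold or more together with p under 0.05 before adjustment, 1213 genes differed (7.08%), of which 1057 were higher (6.17%) and 156 lower (0.911%) in obese tumors. Without regard to size, the 4 obese tumors lay above all lean tumors in 1083 genes (6.33%) and below them in 1188 genes (6.94%).

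**Figure D1:**
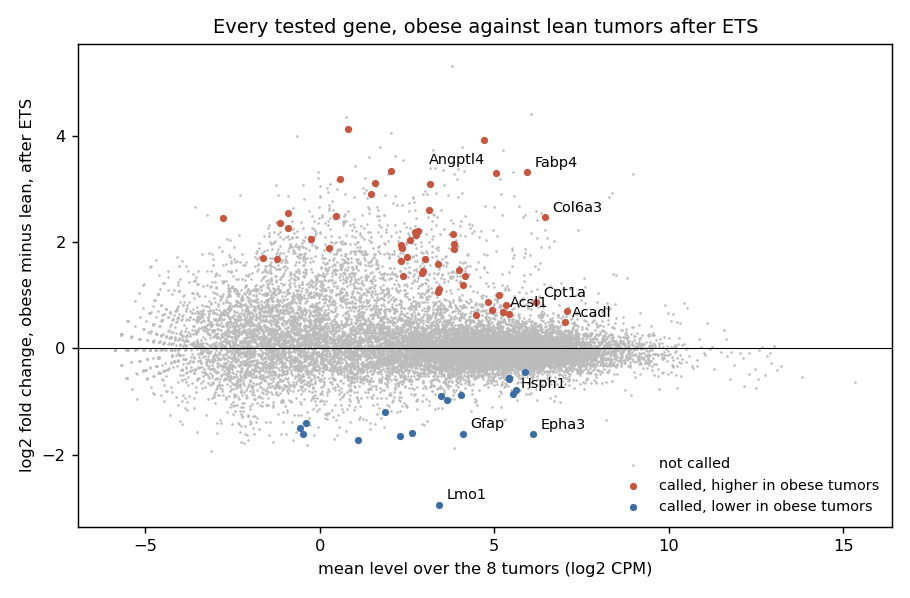
Each point is 1 of the 17122 tested genes, plotted by its mean level over the 8 tumors after ETS (log2 CPM) and its log2 fold change, obese minus lean. The 51 called genes that were higher in obese tumors reach a log2 fold change of 4.13 (Car4), and among the 18 called genes that were lower Lmo1 lies lowest at -2.94.

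The number called depended on single tumors and on the tool. Without lean tumor 1, 3 or 4 edgeR called 0 genes, while 1145, 991 and 1059 genes still met the 2-fold limits, and without lean tumor 2 it called 1. Without obese tumors 1, 2, 3 and 4 it called 10, 23, 6 and 53 genes, and the count by the 2-fold limits was 762 without obese tumor 4. DESeq2 called 1611 genes (9.41%), edgeR's exact test 1029 (6.01%) and limma-voom 690 (4.03%), while limma on log2(TPM + 1) called 49, and the quasi-likelihood fit on all 16 libraries called 828 (4.84%), 482 higher (2.82%) and 346 lower (2.02%). In simulated counts of 16784 genes, called genes without a planted change numbered 5 with the quasi-likelihood test and 5 with limma-voom. They numbered 48 with DESeq2 and 28 with the exact test, and list counts by those tools below are to be read with this. The simulated counts were drawn from edgeR's own dispersions and held no deviant tumor. The rates of false calls in the real tumors may therefore differ from these for every tool. Each of the 69 genes kept its direction and an unadjusted p under 0.05 whichever tumor was left out. Since their groups were separate, leaving out 1 tumor could not turn the direction. The 69 were also picked by their p in these same tumors, so this is not independent support. Of the 69, 65 were also called on all 16 libraries, and 23 with limma on log2(TPM + 1).

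Genes of fatty acid handling were among the largest called differences. Fabp4 and Angptl4, each a known PPAR target, were 9.94 and 9.79 times higher in obese tumors. Fabp4 (gene ID 11770, located in GRCm38.p6 on chromosome 3, 10204342 to 10208616), the fatty acid binding protein of fat cells, macrophages and capillary endothelium, was at 15.1, 15, 7.43 and 7.43 CPM in lean tumors and at 214, 66.4, 103 and 63.2 CPM in obese tumors. Every obese tumor was above every lean tumor (log2 fold change 3.31, standard error 0.46, adjusted p = 0.0386, edgeR). Angptl4, a secreted inhibitor of lipoprotein lipase, measured 6.04, 8.95, 3.07 and 6.40 CPM in lean tumors against 82.2, 20.9, 50.6 and 85.8 CPM in obese tumors. Here obese tumor 2 was the lowest of its group and still above the lean range (log2 fold change 3.29, standard error 0.47, adjusted p = 0.0386, edgeR).

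Of the 25 tested genes in a list of PPAR receptors, coactivators and targets, 4 were called, all higher in obese tumors, among them Fabp4, Angptl4 and Cpt1a. The share called higher over all tested genes was 0.298%. In 9 of the 25 all obese tumors were above all lean tumors (36%, against 6.33% of all tested genes), and the median log2 fold change was 0.75 against 0.009 over all genes. The receptors themselves were not called. Ppara, the receptor of oxidative tissues, was low, at 0.355 to 1.30 CPM in lean and 0.555 to 1.21 CPM in obese tumors (log2 fold change 0.21, 95% interval -0.68 to 1.10, adjusted p = 0.802, edgeR), and its sign turned when lean tumor 4 was left out. Pparg, the receptor of fat cells, had no overlap between its groups, at 0.456 to 1.29 CPM in lean and 2.0 to 4.49 CPM in obese tumors, but missed the threshold (log2 fold change 1.68, standard error 0.43, adjusted p = 0.102, edgeR). Pdk4, which shuts pyruvate out of the citrate cycle, was at 0.0521 to 1.13 CPM in lean and 2.63 to 19.6 CPM in obese tumors and also missed it (adjusted p = 0.0854, edgeR). Both were called in the fit on 16 libraries, at adjusted p-values of 0.0397 and 0.0385 (edgeR).

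Within FAO itself 3 genes were called. Of the 15 FAO genes that the study followed, Cpt1a, Acsl1 and Acadl were higher in obese tumors, none was lower, and 12 were not called, where 0.298% of all tested genes were called higher. The study worked with these genes on tumors of this series, so their count is not independent evidence of a direction. Cpt1a (gene ID 12894, chromosome 19 from 3322326 to 3385735), which encodes the rate-limiting carnitine palmitoyltransferase of the outer mitochondrial membrane, was at 61.0, 45.8, 49.5 and 50.2 CPM in lean tumors. In obese tumors it was at 113, 91.2, 88.7 and 84.1 CPM, with every value above the lean range. The log2 fold change was 0.87 with a standard error of 0.12 (1.82-fold, adjusted p = 0.0386, edgeR). Its promoter is shown as the start of the oxidation step that differed, as the 250 bases before the start that RefSeq's promoter table lists (GRCm38.p6, chr19:3323051-3323300, plus strand), which lies inside the span of the gene given above, with a CCAAT box in capitals.
Cpt1a: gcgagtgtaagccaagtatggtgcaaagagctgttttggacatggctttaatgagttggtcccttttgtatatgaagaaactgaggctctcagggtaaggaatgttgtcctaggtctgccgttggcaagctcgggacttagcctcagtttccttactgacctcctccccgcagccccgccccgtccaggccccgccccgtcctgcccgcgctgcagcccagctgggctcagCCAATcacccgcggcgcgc
The motif CCAAT was held, on either strand, by 37.8% of the 15418 promoters of 300 bases that could be matched to tested genes, so its presence is common.

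Acsl1, the long-chain acyl-CoA synthetase that activates fatty acids, was at 33.4, 26.4, 29.8 and 27.9 CPM in lean tumors and at 48.6, 48.1, 49.8 and 42.0 CPM in obese tumors. The groups were separate, and the log2 fold change was 0.68 (standard error 0.10, adjusted p = 0.0398, edgeR). Acadl, the long-chain acyl-CoA dehydrogenase, measured 108, 102, 106 and 115 CPM in lean tumors and 147, 148, 168 and 144 CPM in obese tumors. That difference, also without overlap, was smaller (log2 fold change 0.49, standard error 0.08, adjusted p = 0.0494, edgeR). For the following enzymes of the mitochondrial pathway the groups overlapped. Acadvl, the very-long-chain acyl-CoA dehydrogenase, had 88.4 to 116 CPM in lean and 91.3 to 116 CPM in obese tumors (log2 fold change 0.050, 95% interval -0.23 to 0.33). Cpt2, the inner membrane carnitine palmitoyltransferase, had a log2 fold change of 0.13 (95% interval -0.10 to 0.37), and Hadha and Hadhb, the subunits of the trifunctional protein, 0.14 (-0.16 to 0.45) and 0.21 (-0.036 to 0.46). For the dehydrogenases of shorter chains, Acadm and Acads, the values were 0.17 (-0.052 to 0.39) and -0.14 (-0.52 to 0.25), and Echs1, the short-chain enoyl-CoA hydratase, had 0.12 (-0.13 to 0.36).

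Peroxisomal enzymes were not called either. Ehhadh, the peroxisomal bifunctional enzyme, had a log2 fold change of 0.41 (95% interval -0.069 to 0.88) and an adjusted p of 0.310 (edgeR). The thiolase genes Acaa1a and Acaa1b had -0.17 and 0.10, but they are near-identical copies whose reads the counting may have split. Of the 35 tested genes of mitochondrial FAO, 3 were called by edgeR, all higher, with a median of 0.10, and 5 were higher and 3 lower at an unadjusted p under 0.05. All obese tumors were above all lean tumors in 3 of them (8.57%, against 6.33% of all tested genes) and below in 1 (2.86%, against 6.94%). DESeq2 and the exact test called 4 of the 35 and limma-voom 3. Of the 21 tested genes of peroxisomal FAO none was called by edgeR, with 3 higher and 1 lower at an unadjusted p under 0.05, and DESeq2, the exact test and limma-voom called 1 each. Without obese tumor 4, the number of the 15 FAO genes with an unadjusted p under 0.05 in the direction of the obese tumors was 7 instead of 4, and the median moved from 0.15 to 0.24.

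Uptake and storage of fatty acids made up most of the remaining lipid differences. In the list of 23 tested genes, 4 were called and all 4 were higher in obese tumors: Fabp4, Abcg1, Dgat2 and Fabp3. Over all tested genes 0.298% were called higher. All obese tumors were above all lean tumors in 10 of the 23 (43.5%, against 6.33% of all tested genes). The median log2 fold change was 0.51. Abcg1, which exports cholesterol to lipoproteins, was at 2.35, 1.94, 2.27 and 1.77 CPM in lean tumors and 11.3, 5.39, 5.67 and 9.93 CPM in obese tumors, a log2 fold change of 1.95 without overlap (standard error 0.28, adjusted p = 0.0392, edgeR). Dgat2, the last enzyme of triglyceride synthesis, stood at 4.18, 4.81, 4.6 and 3.14 CPM in lean and at 10.7, 12.1, 12.8 and 10.3 CPM in obese tumors. It differed by 1.45 on the log2 scale, with tight groups (standard error 0.18, adjusted p = 0.0279, edgeR). For Fabp3, the fatty acid binding protein of heart and muscle, lean tumors had 7.56, 6.17, 6.95 and 6.28 CPM and obese tumors 13.2, 16, 17.6 and 11.5 CPM. The lowest obese tumor, number 4, was well above the highest lean one (log2 fold change 1.11, standard error 0.17, adjusted p = 0.0398, edgeR).

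A group of related genes, named here after their values were seen, just missed the threshold without overlap of their groups. Cd36, the fatty acid translocase, had 4.04 to 18 CPM in lean and 51.0 to 170 CPM in obese tumors (log2 fold change 2.86, adjusted p = 0.0593, edgeR). Lipe, the hormone-sensitive lipase, had 3.46 to 4.94 CPM against 6.45 to 14.9 CPM (1.51, adjusted p = 0.0544, edgeR). Plin2, which coats lipid droplets in most cells, had 214 to 246 CPM against 303 to 498 CPM (0.75, adjusted p = 0.0618, edgeR). All 3 were called in the fit on 16 libraries, in which Fabp3 missed the threshold (adjusted p = 0.0551, edgeR). Among genes of fatty acid synthesis, of 20 tested, edgeR called none, 3 were higher and 1 lower at an unadjusted p under 0.05, DESeq2 and the exact test called 3 and limma-voom 1, and the median was 0.070.

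**Figure D2:**
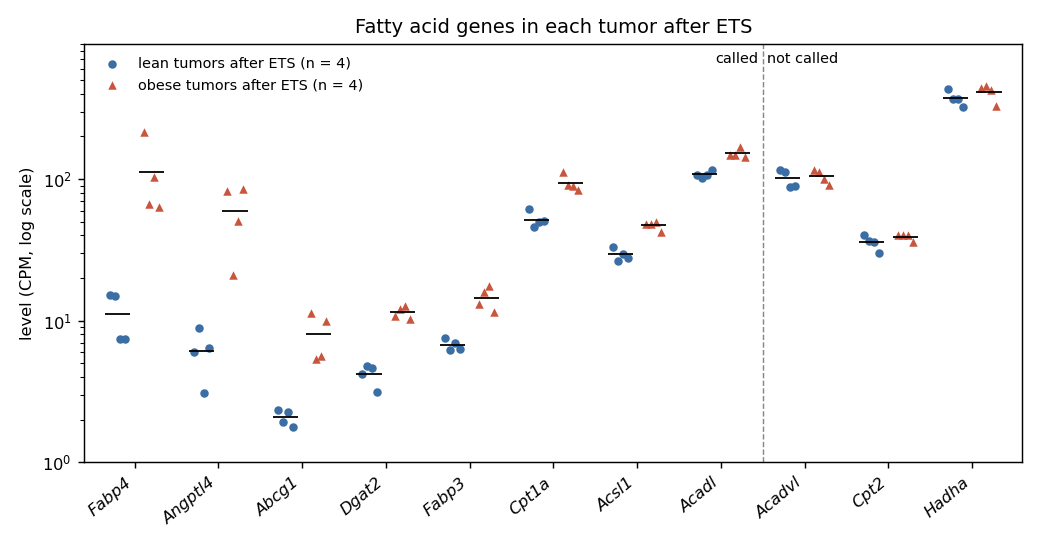
Level in each tumor after ETS (CPM, log scale) of 11 fatty acid genes in the 4 lean (circles) and 4 obese tumors (triangles), with tumors 1 to 4 from left to right and bars at the mean. In the 8 called genes on the left every obese tumor lies above every lean tumor, and all 69 called genes had separate groups. Acadvl, Cpt2 and Hadha on the right overlap between the hosts.

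Fat cells were present in the obese samples to an extent that differed between tumors. Lep, the leptin gene, had 268, 277, 408 and 8 reads in obese tumors 1 to 4 and 0 in each lean tumor. The ob allele carries a point mutation that ends the protein early but leaves a transcript, so these reads do not check the labels. Adipoq had 283, 264, 334 and 8 reads in obese tumors and 27, 25, 0 and 6 in lean tumors, and Plin1 388, 182, 345 and 0 against 0, 11, 0 and 0. These defining markers were thus high in obese tumors 1, 2 and 3 and at or near 0 in obese tumor 4. The summed level of the 6 adipocyte markers was 7.43 to 17.4 CPM in lean and 63.7 to 256 CPM in obese tumors, of which 63.2 CPM in obese tumor 4 came from Fabp4. In that tumor, with Lep, Adipoq and Plin1 at or near 0, Fabp4 at 63.2, Angptl4 at 85.8, Cd36 at 52.7, Cpt1a at 84.1 and Acadl at 144 CPM were still above all lean tumors. The macrophage and fibroblast marker sums were highest in that same tumor, at 990 and 2917 CPM. The part of fat cells, macrophages and fibroblasts in the differences of the lipid genes was not tested.

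**Figure D3:**
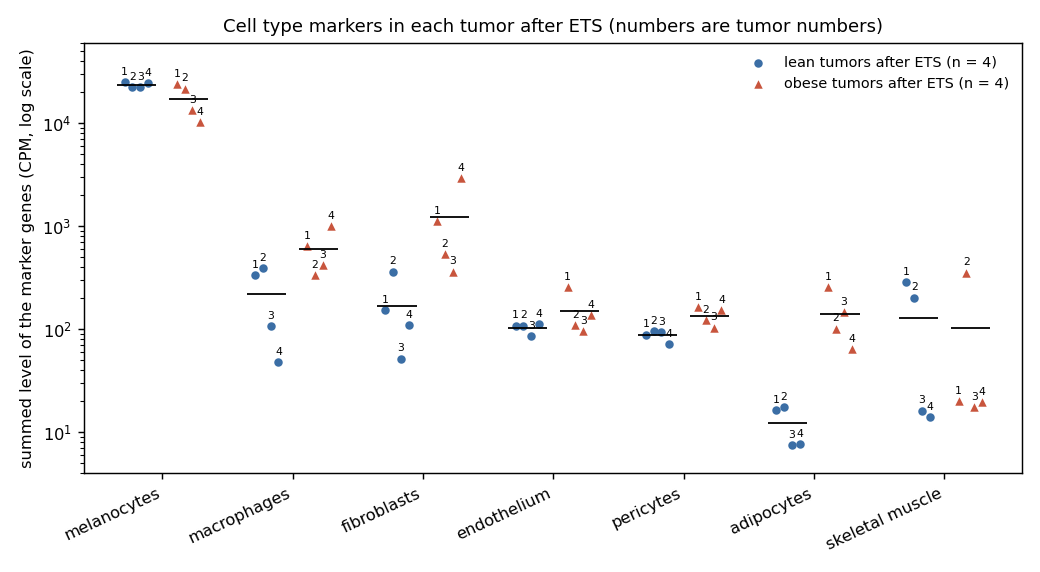
Summed level of the marker genes of 7 cell types in each tumor after ETS (CPM, log scale), with tumor numbers beside the points and bars at the mean of 4. Fibroblast markers reach 2917 CPM in obese tumor 4, adipocyte markers run from 63.7 to 256 CPM in obese tumors against 7.43 to 17.4 CPM in lean tumors, and muscle markers are high in lean tumors 1 and 2 and obese tumor 2.

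The other genes with the largest rises in obese tumors had diverse roles. Car4, a carbonic anhydrase anchored to the outer cell surface, had the largest fold change of those at a mean of at least 1 CPM, with 0.237, 0.261, 0.0347 and 0.220 CPM in lean tumors and 6.86, 1.45, 3.60 and 1.41 CPM in obese tumors. The groups were separate but the obese tumors spread widely, obese tumors 1 and 3 being the highest (log2 fold change 4.13, standard error 0.70, adjusted p = 0.0494, edgeR). Lcn2, a secreted lipocalin that binds bacterial siderophores, was at 0.278 to 1.68 CPM in lean and 5.10 to 11.3 CPM in obese tumors (3.34, standard error 0.56, adjusted p = 0.0494, edgeR). A4galt, the globotriaosylceramide synthase, was at 0.139 to 0.439 against 1.73 to 4.19 CPM (3.18, standard error 0.43, adjusted p = 0.0386, edgeR). These low-level genes had at most 1.68 CPM in any lean tumor.

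Peg3, an imprinted zinc finger gene, was at 0.295 to 0.933 CPM in lean tumors and at 4.4, 4.22, 5.31 and 7.47 CPM in obese tumors (log2 fold change 3.11, standard error 0.40, adjusted p = 0.0303, edgeR). Its annotation overlaps that of Peg3os on the other strand, and whether the counting separated strands is not stated. Cdsn, the corneodesmosin of skin, was at 1.5 to 2.38 CPM in lean and 6.52 to 23.3 CPM in obese tumors (3.10, adjusted p = 0.0279, edgeR), in all obese tumors, although the keratinocyte markers Krt14 and Krt5 were present only in obese tumor 2, at 2276 and 1549 reads. Trarg1, a regulator of glucose transporter traffic in fat and muscle, was at 0.355 to 0.938 against 2.34 to 8.41 CPM (2.91, adjusted p = 0.0494, edgeR). Stac2, a partner of voltage-gated calcium channels, was at 1.93 to 2.97 against 6.82 to 25.4 CPM (2.61, adjusted p = 0.0386, edgeR), and Sel1l3 at 0.236 to 0.616 against 1.25 to 3.27 CPM (2.50, adjusted p = 0.0494, edgeR). In none of these genes did the groups overlap, as the rule that named them required. Klf4, a transcription factor among the immediate early genes, and Tead4, a partner of the Hippo pathway coactivators, differed less, by 1.89 and 1.05 on the log2 scale (adjusted p = 0.0483 and 0.0386, edgeR).

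Connective tissue genes had higher values in obese tumors, with large spread, and 1 of them was called. Col6a3 (gene ID 12835, chromosome 1 from 90766860 to 90844001), a chain of type VI collagen, was the only collagen called by edgeR, at 25, 35.6, 26.6 and 21.0 CPM in lean tumors and 190, 81.1, 86.5 and 240 CPM in obese tumors. Obese tumors 1 and 4 were the highest, and the log2 fold change was 2.46 (standard error 0.37, adjusted p = 0.0398, edgeR). Of the 34 tested collagens, 14 had all obese above all lean tumors (41.2%, against 6.33% of all tested genes) and the median was 1.01. At an unadjusted p under 0.05, 22 collagens were higher and 2 lower, DESeq2 called 20, the exact test 18 and limma-voom 13, and the fit on 16 libraries called 15 higher and 1 lower. On the same scale the 38 tested matrix proteases and crosslinkers had a median of 1.20 and 14 such genes (36.8%), and while edgeR called none of them, 24 were higher at an unadjusted p under 0.05, and DESeq2 called 21, the exact test 16 and limma-voom 11. Col3a1 had 34.3 to 188 CPM in lean and 613, 334, 211 and 2522 CPM in obese tumors 1 to 4 (log2 fold change 3.28, standard error 0.85, adjusted p = 0.103, edgeR), the highest value being that of tumor 4. Without obese tumor 4 its log2 fold change was 2.02. Col1a1 and Fn1, the fibronectin gene, had 2.92 and 1.32 with obese tumor 4 and 1.97 and 0.94 without it. The summed level of the 6 fibroblast markers was 51.8 to 361 CPM in lean and 361 to 2917 CPM in obese tumors, and their part in the collagen values was not tested.

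Macrophage genes had positive fold changes without passing the test. The 8 markers summed to 332, 390, 107 and 47.7 CPM in lean tumors 1 to 4 and to 634, 332, 417 and 990 CPM in obese tumors, so that the groups overlapped between 332 and 390 CPM. Their median log2 fold change was 1.42, edgeR called none of the 8, 3 were higher at an unadjusted p under 0.05, and DESeq2 and the exact test called 1 and limma-voom 0. Lyz2, the lysozyme of myeloid cells, was at 7.79 to 38.0 CPM in lean and 41.7 to 211 CPM in obese tumors (log2 fold change 2.16, standard error 0.59, adjusted p = 0.110, edgeR), whereas C1qa, a complement subunit made by macrophages, overlapped (1.12, adjusted p = 0.422, edgeR). Chemokines had a median of 1.64 over 16 tested genes, edgeR called none, 11 were higher and 1 lower at an unadjusted p under 0.05, and DESeq2 called 6 and the exact test and limma-voom 4 each. The myeloid chemokines Ccl6 and Ccl9 had log2 fold changes of 2.02 and 2.23 (adjusted p = 0.126 and 0.102, edgeR), and obese tumor 4 was the highest for both at 299 and 109 CPM. T cell markers were near 0 in every tumor after ETS, summing to at most 1.54 CPM.

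The genes called lower in obese tumors formed a more even set, with smaller spread and modest folds. Lmo1 (gene ID 109594, chromosome 7 from 109138565 to 109175207), a LIM-only cofactor of transcription, had the largest fall. Lean tumors had 13.2, 21.0, 19.0 and 22.7 CPM and obese tumors 3.94, 2.40, 1.62 and 1.92 CPM, with a wide gap between the groups. The log2 fold change was -2.94 with a standard error of 0.31 (adjusted p = 0.0227, edgeR), the lowest adjusted p of the genes named here, and it ranged from -3.26 to -2.79 when single tumors were left out. Its promoter is shown as that of the largest fall, as the 250 bases before a start (RefSeq, GRCm38.p6, chr7:109175208-109175457, minus strand), with a match to the AP-1 motif TGANTCA that runs into a TTTGAA (CHR, an element of cell cycle genes) on the opposite strand in capitals.
Lmo1: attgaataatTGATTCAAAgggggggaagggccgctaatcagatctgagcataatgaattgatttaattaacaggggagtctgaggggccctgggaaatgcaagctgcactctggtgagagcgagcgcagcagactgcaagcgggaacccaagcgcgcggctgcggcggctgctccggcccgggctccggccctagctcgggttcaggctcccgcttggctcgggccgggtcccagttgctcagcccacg
AP-1 motifs were held by 5.62% and TTTGAA by 12.9% of the 15418 promoters, and a match is a description of the letters only. Promoters were matched for 30 of the 51 genes called higher and 13 of the 18 called lower.

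Slc9b2, a sodium/proton exchanger, had 7.85, 7.68, 7.74 and 6.57 CPM in lean tumors and 3.21, 1.74, 2.16 and 2.41 CPM in obese tumors (log2 fold change -1.65, standard error 0.22, adjusted p = 0.0337, edgeR). Epha3, an ephrin receptor tyrosine kinase, had 107, 65.7, 122 and 122 CPM against 36, 31.4, 40.02 and 29.0 CPM (-1.61, standard error 0.20, adjusted p = 0.0279, edgeR). Even its lowest lean tumor, number 2, was above all obese tumors. Gfap, an intermediate filament of glial cells that neural crest tumors can express, had 26.8, 22.3, 21.7 and 33.0 CPM against 10.7, 8.76, 8.07 and 6.65 CPM (-1.60, standard error 0.19, adjusted p = 0.0279, edgeR). Dhrs2, a short-chain dehydrogenase, had 7.88 to 10.6 CPM in lean and 2.59 to 4.02 CPM in obese tumors (-1.60, adjusted p = 0.0279, edgeR). None of the 4 overlapped, as the rule that named them required. The summed level of the 4 Schwann cell markers, another glial list, was 438 to 569 CPM in lean and 512 to 888 CPM in obese tumors.

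Smaller falls were measured for genes of signaling and traffic. Batf, an AP-1 family factor of lymphocytes, had 4.38 to 5.63 CPM in lean and 1.70 to 2.47 CPM in obese tumors (log2 fold change -1.20, adjusted p = 0.0494, edgeR). Ptpn6, the SHP-1 phosphatase, had 47.9 to 57.0 against 30.6 to 37.0 CPM (-0.58, adjusted p = 0.0494, and 0.0811 in the fit on 16 libraries, edgeR). Rab17, a small GTPase of membrane traffic in pigment and epithelial cells, had 61.0, 65.4, 57.4 and 65.6 CPM in lean tumors and 41.4, 33.6, 37.0 and 32.7 CPM in obese tumors (-0.79, standard error 0.10, adjusted p = 0.0279, edgeR). In these 3 genes the groups were separate in level, as the rule that named them required. Nme3, a nucleoside diphosphate kinase, and Exoc3l4 fell by 0.89 and 0.88 on the log2 scale (adjusted p = 0.0494 and 0.0439, edgeR). Hsph1, a large cytosolic chaperone, had 55.2, 54.5, 65.6 and 65.7 CPM in lean tumors and 27.9, 35.2, 40.6 and 29.7 CPM in obese tumors, a difference of -0.86 on the log2 scale (standard error 0.13, adjusted p = 0.0483, edgeR). It was the only one that edgeR called of 17 tested heat shock protein genes, whose median was -0.019, with 4 lower and 0 higher at an unadjusted p under 0.05, 3 called by DESeq2 and 1 each by the exact test and limma-voom.

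**Figure D4:**
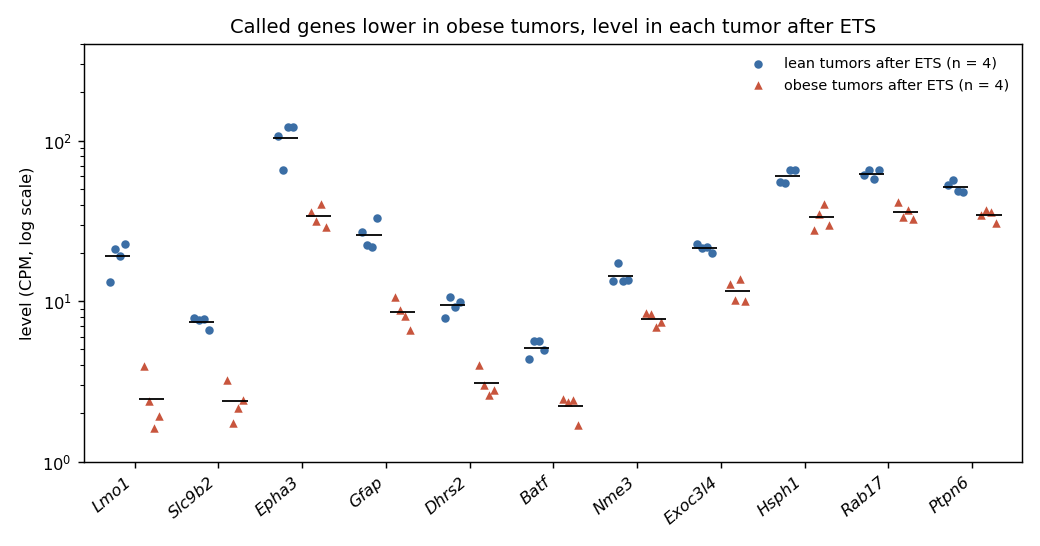
Level in each tumor after ETS (CPM, log scale) of 11 genes called lower in obese tumors, in the 4 lean (circles) and 4 obese tumors (triangles), with tumors 1 to 4 from left to right and bars at the mean. The obese tumors lie below the lean tumors in all 11, as the rule that named them required. The widest gap is that of Lmo1, at 13.2 to 22.7 CPM against 1.62 to 3.94 CPM.

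Genes of DNA replication had small negative fold changes. Of 41 tested, edgeR called none, but 13 had all obese below all lean tumors (31.7%, against 6.94% of all genes), 18 were lower and 1 higher at an unadjusted p under 0.05, and the median log2 fold change was -0.29. DESeq2 called 7 of them, the exact test 4 and limma-voom 1. Mcm2, a subunit of the replicative helicase, had 280, 294, 306 and 254 CPM in lean tumors and 202, 242, 223 and 150 CPM in obese tumors, without overlap (log2 fold change -0.47, adjusted p = 0.131, edgeR). Rrm1, a subunit of ribonucleotide reductase, overlapped (-0.19, adjusted p = 0.511, edgeR). Double-strand break repair genes had a median of -0.20 over 44 tested, 9 of them with all obese tumors below (20.5%). None was called by edgeR, 8 were lower and 0 higher at an unadjusted p under 0.05, and DESeq2 called 4, the exact test 2 and limma-voom 1. Brca1 had 99.5 to 149 CPM in lean and 38.4 to 88.9 CPM in obese tumors (-0.93, standard error 0.25, adjusted p = 0.110, edgeR), and Xrcc5, the Ku80 subunit of end joining, had -0.45 (adjusted p = 0.173, edgeR). The ETS targets Top2a and Top2b had log2 fold changes of -0.18 (95% interval -0.58 to 0.22) and -0.22 (-0.55 to 0.11).

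Among arrest and death genes edgeR called none. Cdkn1a, the p21 inhibitor induced by p53, stood at 1170, 1375, 1041 and 1040 CPM in lean tumors and at 1286, 1196, 1132 and 1170 CPM in obese tumors, within the same range (log2 fold change 0.049, 95% interval -0.24 to 0.33). Ccng1, another p53 target, had -0.37 (adjusted p = 0.207, edgeR). Over the 32 tested p53 targets edgeR called none, with 7 higher and 4 lower at an unadjusted p under 0.05, while DESeq2 called 3 and the exact test and limma-voom 2 each, and the median was 0.11. Of 38 tested genes of the Bcl2 family and caspases, 3 were higher and 2 lower at an unadjusted p under 0.05, DESeq2 called 3, the exact test and limma-voom 2 each and the fit on 16 libraries 1, and the median was 0.082. Casp2, the caspase that the study tied to FAO, had 35.9 to 51.5 CPM in lean and 31.9 to 41.4 CPM in obese tumors (-0.32, 95% interval -0.64 to 0.006), and Naa10, a catalytic subunit of N-terminal acetylation, had -0.19 (-0.42 to 0.046). The reference gene Actb had 0.48 (-0.042 to 1.01, adjusted p = 0.276, edgeR).

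The list of interferon response genes had no called member after ETS, while Gvin1, an interferon-inducible gene outside it, was called higher and is described below. Of 31 tested, edgeR called none, 4 were higher and 1 lower at an unadjusted p under 0.05, DESeq2 called 2, the exact test 1 and limma-voom 0, and the median log2 fold change was 0.043. Rsad2, an antiviral enzyme also termed viperin, had 90.1, 59.7, 94.1 and 74.8 CPM in lean tumors and 88.8, 104, 54.5 and 78.4 CPM in obese tumors (0.033, 95% interval -0.43 to 0.50). Its highest and lowest values were both in obese tumors, so the groups overlapped throughout. Guanylate-binding proteins and immunity-related GTPases, effectors that attack intracellular pathogens, had a median of 0.056 over 17 tested genes. None of these was called by edgeR, DESeq2, the exact test or limma-voom, and 1 was higher at an unadjusted p under 0.05. Gbp2 had 31.1, 28.3, 12.7 and 13.7 CPM in lean tumors and 27.0, 21.9, 46.5 and 35.8 CPM in obese tumors (0.61, 95% interval -0.15 to 1.38), and Irgm1 had -0.48 (-1.02 to 0.062). These ranges overlapped.

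Antigen presentation genes also lacked called members. The 20 tested genes of MHC class I presentation had a median of -0.24, with 0 higher and 2 lower at an unadjusted p under 0.05 and 0 called by edgeR, DESeq2, the exact test and limma-voom. Calr and Pdia3, chaperones of peptide loading, had log2 fold changes of 0.046 and -0.15. Of the 8 tested genes of MHC class II presentation edgeR called none, DESeq2 and the exact test 1 and limma-voom 0, with 1 higher and 1 lower at an unadjusted p under 0.05. H2-DMb1, which edits class II peptides, had 37.5, 27.6, 9.46 and 15.6 CPM in lean tumors and 9.12, 4.53, 4.0 and 7.12 CPM in obese tumors (-1.86, standard error 0.44, adjusted p = 0.0871, edgeR), while Ctss, the cathepsin that trims the invariant chain, had 1.89 (adjusted p = 0.170, edgeR) and 1.40 without obese tumor 4.

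More genes were called between the hosts before therapy, in the separate tumors taken then. In a fit on all 16 libraries over the same 17122 genes, 4490 genes were called (26.2%), 2288 higher (13.4%) and 2202 lower (12.9%) in obese tumors, against 828 after ETS in the same fit (4.84%). Before therapy, 31 of 31 interferon response genes were lower with a median of -3.67. For guanylate-binding proteins and immunity-related GTPases 17 of 17 were lower before therapy (median -6.85), for MHC class I presentation 20 of 20 (-3.67) and for MHC class II presentation 8 of 8 (-6.04). The test of the difference between the host differences, after ETS minus before therapy, called 2851 genes in all (16.7%), 1731 more positive (10.1%) and 1120 more negative (6.54%) after ETS. Called as more positive after ETS were 31 of 31 interferon response genes, 17 of 17 guanylate-binding proteins and immunity-related GTPases, 18 of 20 MHC class I genes and 8 of 8 MHC class II genes. A more positive difference can come from a fall in lean tumors, a rise in obese tumors or both. For Ctss mean levels went, from before therapy to after ETS, from 216 to 20.4 CPM in lean and from 14.1 to 74.7 CPM in obese tumors. Before therapy the T cell marker Cd3e had 157, 229, 139 and 258 reads in lean tumors and 0 in each obese tumor. The part of such cells in these differences was not tested. For Rsad2 the host difference was -2.78 before therapy and 2.81 more positive after ETS (adjusted p = 5.35e-05, edgeR), and for Gbp2 it was -6.08 before and 6.68 more positive (adjusted p = 0.000323, edgeR). With limma on log2(TPM + 1) the balance of calls was 2387 to 240, or 90.9% more positive instead of 60.7%, and the median over all genes shifted from -0.054 to 0.15.

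The promoters of Rsad2 and Gbp2 are shown because their host differences changed between the time points, each as the 250 bases before the start (RefSeq, GRCm38.p6), with the interferon-stimulated response element (searched on both strands, here on the opposite one), AP-1 motifs TGANTCA and, in Gbp2, matches to TTTGAA in capitals. Rsad2 lies at chr12:26456453-26456702 on the minus strand and Gbp2 at chr3:142620413-142620662 on the plus strand.
Rsad2: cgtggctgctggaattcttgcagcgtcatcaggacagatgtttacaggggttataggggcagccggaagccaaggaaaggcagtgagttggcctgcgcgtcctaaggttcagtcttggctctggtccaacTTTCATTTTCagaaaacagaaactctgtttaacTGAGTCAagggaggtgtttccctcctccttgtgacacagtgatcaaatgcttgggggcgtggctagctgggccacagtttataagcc
Gbp2: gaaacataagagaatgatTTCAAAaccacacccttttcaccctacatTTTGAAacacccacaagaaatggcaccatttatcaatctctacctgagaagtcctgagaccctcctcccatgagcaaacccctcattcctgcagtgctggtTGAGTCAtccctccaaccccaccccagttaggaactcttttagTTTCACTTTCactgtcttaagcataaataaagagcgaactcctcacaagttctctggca
The response element begins 120 bases before the start in Rsad2 and 59 in Gbp2. It was held by 3.06% of the 15418 promoters. Counted by gene, promoters of 3.74% of the 12074 tested genes that could be matched held it. The same count gave 13 of the 22 interferon response genes that could be matched, 1 of 30 called genes higher and 0 of 13 called genes lower in obese tumors.

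**Figure D5:**
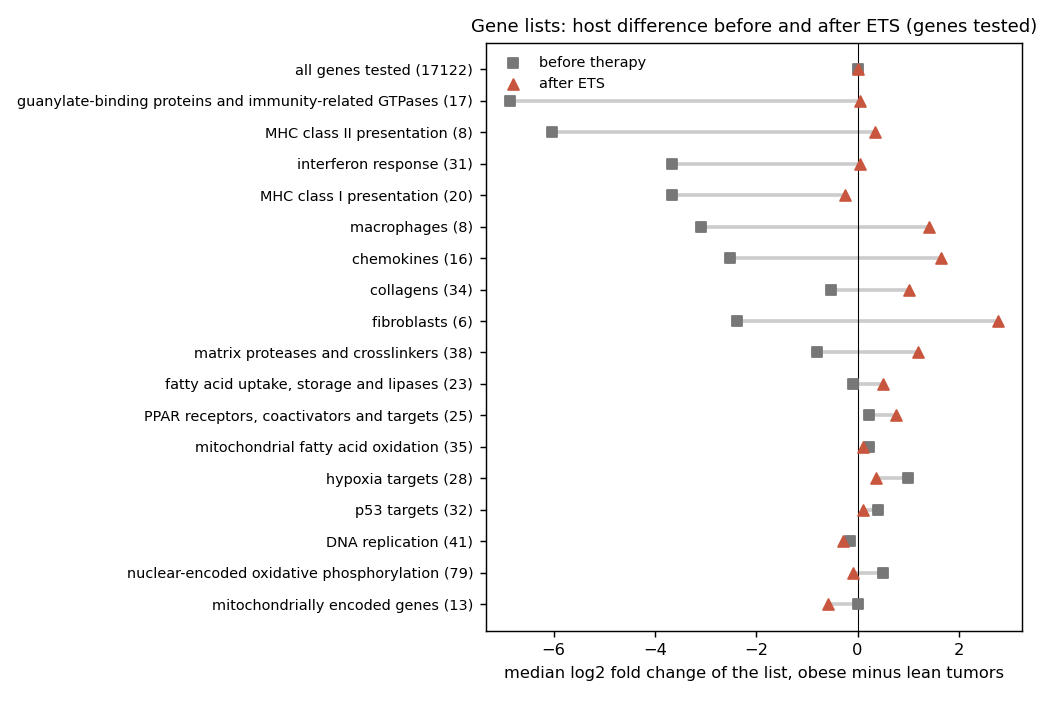
Median log2 fold change of obese against lean tumors for all tested genes and 17 gene lists, before therapy (squares) and after ETS (triangles), with the number of genes tested in parentheses. Guanylate-binding proteins move from -6.85 to 0.056 and interferon response genes from -3.67 to 0.043, fibroblast markers from -2.37 to 2.77, and all tested genes stay at 0.018 and 0.009.

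Of the 69 genes called after ETS, 29 had been called in the same direction before therapy, 10 in the opposite direction and 30 not at all, and for 34 the difference between the 2 host differences was called. Dgat2 belonged to the first set, with a host difference of 2.16 before therapy (adjusted p = 5.24e-05, edgeR), as did Cdsn, Stac2 and Peg3 among genes higher in obese tumors and Slc9b2, Epha3, Gfap and Exoc3l4 among those lower. Abcg1 belonged to the second, at -2.91 before therapy, and Col6a3 likewise at -1.10. The interferon-inducible large GTPase Gvin1, named here after its values were seen, was at -4.01 before therapy and at 2.22 after ETS (adjusted p = 0.0386, edgeR), but it has near-identical copies, and the counting may have split their reads. Predicted gene models near it on chromosome 7 were also called higher. From before therapy to after ETS its mean level went from 42.1 to 2.61 CPM in lean and from 2.61 to 12.1 CPM in obese tumors. Cpt1a and Acsl1 had log2 fold changes of -0.011 and 0.097 before therapy, neither called, and the later one was more positive by 0.87 and 0.58 (adjusted p = 0.0136 and 0.0318, edgeR). For Acadl the host difference was 0.26 before therapy, and the change of 0.23 did not pass the test (adjusted p = 0.207, edgeR). Lmo1 went from -0.89 to -2.94, a change that was called (adjusted p = 0.0116, edgeR), and so did those of Rab17 and Nme3.

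Hypoxia targets had a median log2 fold change of 0.37 over 28 tested genes, of which edgeR called 1, Angptl4, a gene that PPAR receptors also drive. At an unadjusted p under 0.05, 9 were higher and 0 lower, DESeq2 called 6, the exact test 5 and limma-voom 2, and the fit on 16 libraries 2. Without obese tumor 4 the median was 0.078. Before therapy the median was 0.99, with 15 of the 28 called higher and 1 lower in obese tumors. Ero1l, an oxidase of the endoplasmic reticulum, had 825 to 1131 CPM in lean tumors and 1493, 952, 1621 and 3041 CPM in obese tumors (log2 fold change 0.85, adjusted p = 0.175, edgeR), and 0.46 without obese tumor 4. The RNA of Hif1a, the hypoxia-inducible factor itself, had -0.081 (95% interval -0.40 to 0.23), with a sign that turned without obese tumor 4 or with TPM values. The study measured this factor as protein in tumors, which RNA levels do not show. The stress chaperone Hspa5 had 720 to 853 CPM in obese tumors 1 to 3 and 2494 CPM in obese tumor 4, so that its log2 fold change of 0.67 was 0.068 without that tumor.

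Mitochondrially encoded genes did not pass the test. All 13 had a negative log2 fold change, with a median of -0.58, and 0 of the 13 had an unadjusted p under 0.05 in edgeR or were called by it, DESeq2, the exact test or limma-voom. COX1, the catalytic subunit of cytochrome c oxidase, had 52560, 67170, 39160 and 43650 CPM in lean tumors and 48120, 43100, 22380 and 17320 CPM in obese tumors, where tumors 3 and 4 were the lowest (-0.63, 95% interval -1.55 to 0.29). CYTB, a subunit of complex III, had -0.54 (-1.42 to 0.33). Nuclear-encoded oxidative phosphorylation genes had a median of -0.091 over 79 tested after ETS against 0.50 before therapy. The difference was called as more negative in 52 of them. With TPM values their median after ETS was 0.047, below the median of 0.098 over all genes in that unit. Pigmentation genes had a median of -0.42. The pigment enzymes Tyrp1 and Dct had -0.50 (adjusted p = 0.272, edgeR) and -0.39 (adjusted p = 0.449, edgeR), with obese tumors 3 and 4 lowest, the same tumors in which the melanocyte marker sum was lowest. Lepr, the leptin receptor, was at 0.271 to 0.743 CPM in lean and 0.291 to 1.11 CPM in obese tumors (0.20, 95% interval -0.83 to 1.22).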

How the data were processed

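Whole-tumor RNA was sequenced from 16 allografts, 4 in each of 4 groups named by the labels. The authors trimmed reads with Trimmomatic, aligned them with HISAT2 2.1.0 to mm10 and assembled transcripts with StringTie 2.1.3b, after base calling with bcl2fastq 2.20.0, and deposited read counts, FPKM and TPM per gene. Whether counting used strand is not given in the sources used here. The deposited counts were used for all tests, the deposited TPM for 1 alternative, and the deposited FPKM values not at all.

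Genes with a 0 count in any of the 8 tumors after ETS were excluded, as in the methods of the study. Counts were scaled by TMM and tested with edgeR 4.0.16 (R 4.3.3) by the quasi-likelihood test with Benjamini-Hochberg adjustment at 0.05. Standard errors and 95% intervals came from that fit. The host difference after ETS was set against that before therapy as an interaction in 1 fit on all 16 libraries. Alternatives were other scaling, other filters, DESeq2 1.42.0, edgeR's exact test on counts with 1 added, limma-voom and limma on log2(TPM + 1) (limma 3.58.1), a replicate block, and leaving out each tumor. In simulated counts, the test after ETS recovered 14.3% of genes changed 1.5-fold, 52.1% changed 2-fold and 87% changed 4-fold.

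Named genes were the 12 highest and 12 lowest called fold changes at a mean of at least 1 CPM with separate groups, predicted models left out, up to 4 called members of each list or its most abundant members to make 2, and fixed FAO and control genes. The text gives 81 genes, 6 of them not by this rule. Members and lists were chosen with earlier results of these data known. Genes of chromosome 18 and a few others are counted but not reported individually. Promoters were taken from RefSeq for GRCm38.p6, and 45675 genes were matched to its gene table.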

Additional observations from a re-analysis of the deposited data

Results flagged for a closer look

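The host difference after ETS differed from that before therapy, by the interaction test in edgeR at an adjusted p under 0.05, in 2851 genes. Among genes with higher values in obese tumors after ETS, the difference after minus before on the log2 scale was 3.58 for Car4, 3.61 for A4galt, 2.57 for Trarg1, 3.32 for Sel1l3, 3.55 for Col6a3, 4.86 for Abcg1 and 6.22 for Gvin1. For lipid genes it was 0.87 for Cpt1a, 0.58 for Acsl1, 2.89 for Cd36, 0.93 for Plin2, 3.46 for Pparg and 1.71 for Lipe. Negative differences were measured for Lmo1 (-2.05), Nme3 (-0.82), Rab17 (-0.89), Naa10 (-0.49) and the p53 targets Cdkn1a (-2.18) and Ccng1 (-1.53). Ptpn6 had 1.23 and Actb 0.90.

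Immune and matrix genes had positive differences. These were 2.81 for Rsad2, 6.68 for Gbp2, 4.68 for Irgm1, 5.81 for Ctss and 4.25 for H2-DMb1. Matrix genes had 4.55 (Col1a1), 5.66 (Col3a1) and 1.57 (Fn1), and myeloid genes 4.41 (Lyz2), 4.57 (C1qa), 4.52 (Ccl6) and 4.61 (Ccl9).

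Single tumors stood apart from the other 3 of their group, by Dixon's criterion, in 15 of 166 groups tested. For independent, normally distributed values the rate is about 1 in 20. These groups share the same tumors and are not independent, so that rate cannot show an excess. Obese tumor 4 stood apart for Hspa5 at 2494 CPM, Ccl9 at 109, Tead4 at 16.9, Batf at 1.70, Cpt2 at 35.8 and Hadhb at 181 CPM. Obese tumor 1 did so for Cd36 at 170, Pdk4 at 19.6 and Pparg at 4.49 CPM, and obese tumor 3 for Acadl at 168 and Pdia3 at 578 CPM. Among lean tumors these were tumor 2 for Nme3 at 17.4 and Acaa1a at 86.5 CPM, and tumor 4 for Slc9b2 at 6.57 and Echs1 at 59.0 CPM.

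Outside the tested genes, 21 had 0 reads in every lean tumor and more than 3 reads in every obese tumor. Lep reached 408 reads in obese tumor 3, and Retn, the resistin gene of mouse fat cells, had 30, 27, 32 and 0 reads in obese tumors 1 to 4, with 0 in lean tumors, and so is not among the 21.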

How the results depend on the processing

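The 31 called genes named above kept their direction under every alternative run, where their separate groups left little room for a turn. Of the 50 not called, 41 kept their direction and 15 were called under at least 1 alternative. The count of 69 called genes became 18 without the exclusion of 0 counts, 828 on all 16 libraries, 1611 with DESeq2, 1029 with the exact test, 690 with limma-voom and 0 with a replicate block, and ranged from 0 to 53 without single tumors. The count of 1213 by the 2-fold limits became 1881 without the exclusion and 433 with TPM, and ranged from 762 to 1420 without single tumors. The cause was not tested. The labels do not say that replicate numbers pair the tumors. Same-numbered tumors had deviations that correlated at 0.036, -0.023, 0.332 and -0.045, and differently numbered ones at -0.394 to 0.256. With so few tumors these values cannot decide whether a pairing exists. The replicate block gave 3230 genes instead of 2851 for the interaction.

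Log2 fold changes near 0 turned sign. Over the fits without single tumors the range was -0.014 to 0.119 for Acadvl (with -0.011 and -0.002 between), -0.117 to 0.206 for Acaa1b, -0.041 to 0.53 for Ppara, -0.166 to 0.043 for Hif1a, -0.219 to 0.434 for Lepr (with -0.027), -0.108 to 0.178 for Rsad2 (with -0.077 and -0.011), -0.013 to 0.113 for Calr and -0.003 to 0.148 for Cdkn1a. Acads was at 0.041 with limma-voom and Hif1a at 0.050 with TPM, a unit that moved the median of all genes to 0.098. With 4 tumors a group and a common biological coefficient of variation of 0.264, changes under 2-fold were often missed in simulated counts.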

Other observations

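Genes excluded for a count of 0 held some of the most uneven values. Ephx2, the soluble epoxide hydrolase that degrades fatty acid epoxides, had 163, 52, 100 and 31 reads in obese tumors 1 to 4 and 0 in every lean tumor. Wfdc21, a secreted whey acidic protein family member, had 23, 63, 25 and 37 reads against 0. Of the excluded genes, 247 had at least 10 reads in every obese tumor and 71 at least 10 reads in every lean tumor. These genes were named after their values were seen and were not tested.

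Among lists not described above, the 25 tested for cholesterol synthesis had a median of -0.25 on the log2 scale. edgeR, DESeq2, the exact test and limma-voom called none of them, and 5 were lower and 0 higher at an unadjusted p under 0.05. Genes of the integrated stress and unfolded protein response had a median of 0.29 over 36 tested, and 0.13 without obese tumor 4. edgeR called none of these, 13 were higher at an unadjusted p under 0.05, and DESeq2 called 8, the exact test 6 and limma-voom 2. Skeletal muscle markers summed to 286 and 202 CPM in lean tumors 1 and 2 and 352 CPM in obese tumor 2, against 13.9 to 20.1 CPM in the other 5 tumors.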
